A study of Mus musculus with 24 samples.

Results

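The neocortex and the hippocampus were compared in mice that lack the Cdr1as locus, using the 3 knockout cortex libraries and the 3 knockout hippocampus libraries, 6 of the 24 libraries in the series. The libraries were taken by their labels, and the knockout was chosen because some wild-type libraries were known to hold choroid plexus RNA. The series holds poly(A)-selected RNA of 4 dissected brain regions (olfactory bulb, cortex, hippocampus, cerebellum), each with 3 libraries labelled Cdr1as knockout and 3 labelled wild-type, from C57BL/6 mice. Both groups compared here carry the same deletion, so the comparison describes the regions in a knockout background. The labels give no age, sex, time of day or housing, do not say whether the 3 libraries of a region came from 3 animals, and do not say whether a number shared by 2 regions marks an animal. The p-values therefore measure the spread between these libraries, which may be technical in part.

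Both regions are parts of the pallium, the dorsal forebrain whose projection neurons use glutamate. The neocortex stacks its projection neurons in layers: the upper ones connect cortical areas, layer 4 receives thalamic input, layer 5 projects below the cortex and layer 6 back to the thalamus. The hippocampus arranges its neurons in a loop in which granule cells of the dentate gyrus excite CA3 pyramidal cells, which excite CA1. It is also known for adult-born granule cells and for a high density of corticosteroid receptors. Cdr1as is a circular RNA expressed in neurons and known for its many binding sites for the microRNA miR-7.

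Depth was 22628860 to 36327527 counts assigned to genes in these 6 libraries. Libraries of a region resembled each other more than libraries of different regions, with correlations of log2 CPM (counts scaled to a common library total, corrected with TMM factors) of at least 0.98 within a region and at most 0.9653 between regions. The feature named Cdr1asG in the deposited tables had 0.142, 0.457 and 0.337 CPM in the cortex and 0.559, 0.132 and 1.89 CPM in the hippocampus, against 5.15, 3.7 and 10.1 CPM in the wild-type cortex and 12.4, 2.24 and 8.26 CPM in the wild-type hippocampus. C230004F18Rik, a noncoding RNA annotated at the locus, had 19.2, 16.8 and 22.2 CPM in the cortex and 18, 12.9 and 34.6 CPM in the hippocampus. Neither passed the test between regions (edgeR adjusted p = 0.32 and 0.784). Of the marker lists for other tissue, those of the striatum, choroid plexus, meninges and thalamus were uneven between these libraries. The summed level of the 14 striatal genes tested was 1930.0, 2251 and 1447 CPM in cortex libraries 1, 2 and 3 and 474, 469 and 469 CPM in the hippocampal ones. Choroid plexus genes summed to 186, 26.4 and 351 CPM in the cortex and 51.7, 43.1 and 40.3 CPM in the hippocampus, meningeal genes to 1154, 718 and 1213 and 353, 1059 and 391 CPM, and thalamic genes to 252, 217 and 264 and 171, 355 and 186 CPM. Hippocampus library 2 thus had the highest meningeal and thalamic sums of its group, and cortex libraries 1 and 3 the most choroid plexus RNA, as the plot of summed markers shows.

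**Figure D1:**
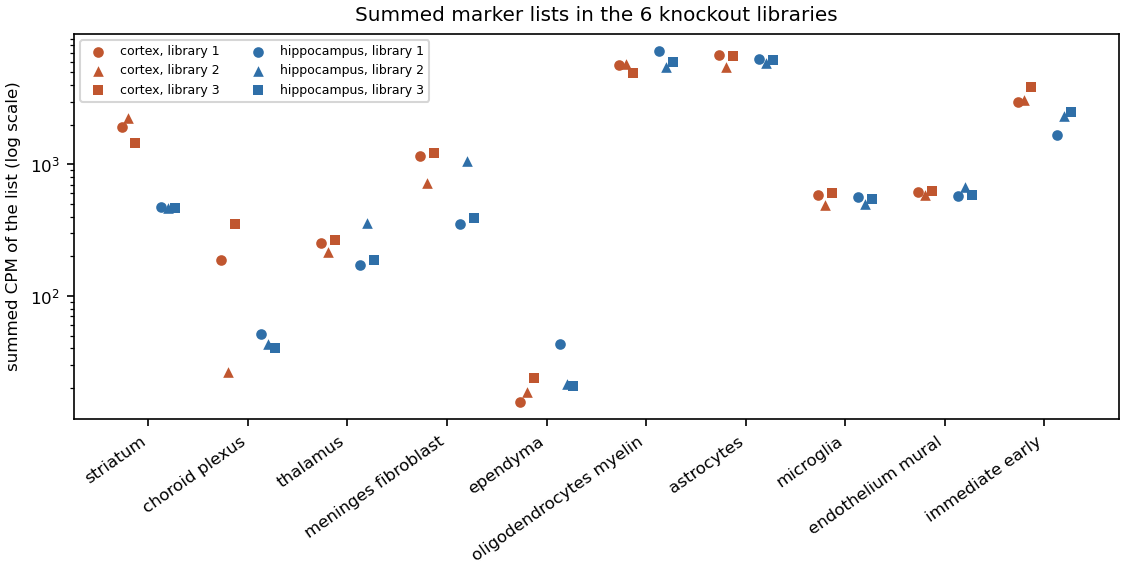
Summed CPM (log scale) of 10 marker lists in the 6 knockout libraries; each symbol is 1 library, orange for cortex and blue for hippocampus. The striatal sum lies between 1447 and 2251 CPM in the cortex and between 469 and 474 CPM in the hippocampus, while the glial and vascular sums lie close together.

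How many genes separate the regions, and by how much? Of 15843 genes tested, 1722 were higher in the cortex (10.9%) and 1325 were higher in the hippocampus (8.36%) at an edgeR adjusted p under 0.05. At least a 2-fold difference was reached by 695 of the cortical genes (4.39% of those tested) and 425 of the hippocampal ones (2.68%), and the 2 groups of libraries did not overlap for any of these 1120 genes (7.07%), whereas they did not overlap for 37.9% of all genes tested. Differences of 8-fold or more were found for 88 cortical and 45 hippocampal genes. The median log2 of cortex over hippocampus was -0.0033 over all genes tested with TMM scaling, which centres it near 0, and -0.035 with library totals alone. Throughout, log2 stands for the fold difference of cortex over hippocampus, with negative values for genes higher in the hippocampus, and a gene is said to be higher in a region only where it passed this test. The shares of 10.9% and 8.36% are to be set beside the counts of every gene list below. In tissue RNA, fewer cells of a type and less RNA per cell cannot be told apart. The cortical and hippocampal counts depended on which libraries entered. They were 1114 and 906 without cortex library 1, and 1076 and 886 without cortex library 3. Without hippocampus library 1 they were 1147 and 907, and without cortex library 2 they were 1808 and 1849. With the 2 cortex libraries richest in choroid plexus RNA left out, 518 cortical and 425 hippocampal genes passed, and without the libraries numbered 2 the counts were 2579 and 2532.

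**Figure D2:**
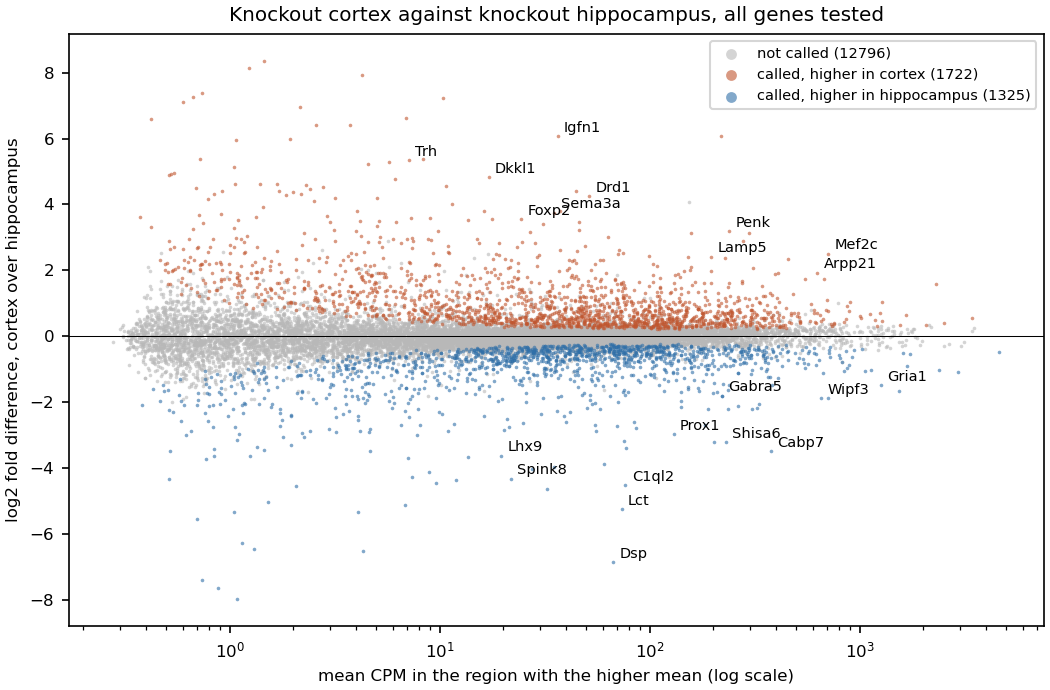
Log2 fold difference of knockout cortex over knockout hippocampus for all 15843 genes tested, against the mean CPM in the region with the higher mean (log scale); coloured points passed the test. Genes higher in the cortex (1722) and in the hippocampus (1325) are found at every level, and those named are described in the text.

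Do the libraries carry the marks of their labelled region? Transcription factors that define upper-layer cortical neurons were higher in the cortex. Cux2, a homeodomain factor of the upper layers, had 113, 90.8 and 106 CPM in the cortex and 22.6, 35.8 and 26.4 CPM in the hippocampus (log2 1.87, SE 0.17, edgeR adjusted p = 0.000335). Every cortical library lay above every hippocampal one. Of 13 upper-layer genes tested, 10 were higher in the cortex and 2 in the hippocampus (median log2 1.6). The others higher in the cortex included the lysosome-associated membrane protein Lamp5 (2.42), the calcium sensor of exocytosis Otof (2.33), the semaphorin receptor Plxnd1 (2.02) and the netrin receptor Unc5d (1.6). The cell adhesion gene Mdga1 (-1.64) and the protocadherin Pcdh8 (-0.65) were higher in the hippocampus.

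Layer 6 genes were higher in the cortex for the most part. Foxp2, a forkhead factor of corticothalamic neurons, had 22.4, 29.4 and 21.6 CPM in the cortex and 1.12, 3.55 and 1.36 CPM in the hippocampus (log2 3.56, SE 0.41, edgeR adjusted p = 0.00105). Hippocampus library 2, which also had the highest thalamic sum, was the highest of its group, and without it the log2 was 4.3. Among the cortex libraries Foxp2 had the order of the striatal marker sums, and the part of striatal RNA in it was not tested. Of 16 layer 6 genes, 10 were higher in the cortex, each by at least 2-fold, and 2 were higher in the hippocampus (median log2 1.67). They included the kappa opioid receptor Oprk1 (2.83), the heparan sulfate endosulfatase Sulf1 (2.82), the complexin Cplx3 (2.47) and the matricellular factor Ccn2 (1.85) of the deepest layer, the neurotensin receptor Ntsr1 (1.73) and the T-box factor Tbr1 (1.61). The thyroid-hormone-binding Crym (-1.43) was among those in the opposite direction.

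Layer 5 genes were divided. Of 14 tested, 6 were higher in the cortex, 4 were higher in the hippocampus and 4 were not called (median log2 0.11). The cortical and hippocampal shares over all genes tested were 10.9% and 8.36%. The mTOR inhibitor Deptor (1.6), the retinol carrier Rbp4 (1.38) and the calmodulin regulator Pcp4 (1.1) were higher in the cortex. Bcl11b, the zinc finger factor that specifies subcerebral projection neurons and is also made by granule cells, had 109.7, 127 and 101 CPM in the cortex and 172, 161 and 171 CPM in the hippocampus (log2 -0.58, SE 0.09, edgeR adjusted p = 0.00367). The master regulator of these neurons, Fezf2, did not pass (log2 -0.32, SE 0.11, edgeR adjusted p = 0.0906) except without hippocampus library 1 (edgeR adjusted p = 0.0291), nor did the Ets factor Etv1 (log2 -0.15, SE 0.09, edgeR adjusted p = 0.287). Of 9 layer 4 genes, 4 were higher in the cortex, among them the peptide gene Cartpt (2.93), the Wnt enhancer Rspo1 (2.84) and the nuclear receptor Rorb (1.2), and 2 in the hippocampus, the sodium channel subunit Scnn1a (-0.74) and the cortisone-reducing enzyme Hsd11b1 (-1.09). With 1 library left out, the call was lost for Scnn1a without cortex library 1 or 3 or hippocampus library 1 (edgeR adjusted p from 0.0763 to 0.106).

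**Figure D3:**
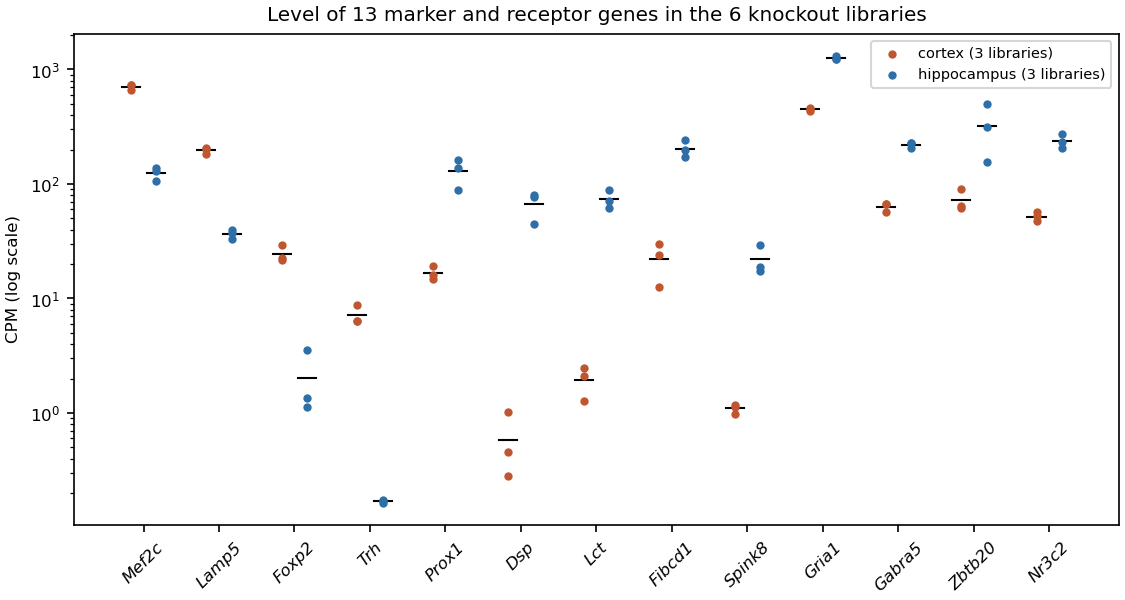
CPM (log scale) of 13 genes in the 6 knockout libraries; points are libraries, orange for cortex and blue for hippocampus, and black bars are means of 3. From Mef2c to Trh the cortical libraries are higher, and from Prox1 to Nr3c2 the hippocampal ones, with no overlap for any of the 13.

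Granule cell genes of the dentate gyrus held several of the largest hippocampal differences. Dsp, the desmosomal plaque protein desmoplakin, had 0.453, 0.281 and 1.01 CPM in the cortex and 79.7, 44.4 and 76.5 CPM in the hippocampus (log2 -6.84, SE 0.43, edgeR adjusted p = 0.000106). Lct, the lactase gene, which marks granule cells in mice, had 2.47, 1.26 and 2.09 CPM in the cortex and 88.4, 61.8 and 70.8 CPM in the hippocampus (log2 -5.23, SE 0.25, edgeR adjusted p = 2.44e-05). In both, the lowest hippocampal library was library 2 and still lay far above all cortical ones. The log2 of Dsp was -7.48 without cortex library 3 and -7.88 without cortex libraries 1 and 3, where that of Lct was -5.87 and that of Il16 -4.44. Prox1, the homeodomain factor that specifies and maintains granule cell identity, had 16.2, 14.7 and 19.1 CPM in the cortex and 163, 88.3 and 139 CPM in the hippocampus (log2 -2.97, SE 0.24, edgeR adjusted p = 0.000236), with library 2 again lowest in its group. C1ql2, a complement-like protein released at mossy fibre synapses, had 3.51, 2.53 and 4.11 CPM in the cortex and 102, 66.8 and 61.1 CPM in the hippocampus (log2 -4.5, SE 0.27, edgeR adjusted p = 5.89e-05). The tryptophan dioxygenase Tdo2 (-4.44), the cytokine precursor Il16 (-3.85), the zinc finger factor Glis3 (-1.76) and the cation channel Trpc6 (-1.47) belonged to the same group. Of 20 granule cell genes tested, 15 were higher in the hippocampus, 13 of them at least 2-fold, and 3 were higher in the cortex (median log2 -1.2). Gsg1l, an auxiliary AMPA receptor subunit placed on this list, was among the latter (log2 2.19, SE 0.08, edgeR adjusted p = 1.08e-05), with 105, 103 and 102 CPM in the cortex and 23.5, 21 and 23.7 CPM in the hippocampus.

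Promoters are shown for every granule cell gene at least 4-fold higher in the hippocampus, 6 genes, because these genes differ together by region. Each sequence covers 250 bases before and 50 bases after a start site, 5′ to 3′ on the gene's strand, from RefSeq on GRCm38.p6, whereas the counts were made on mm9. Where the table lists several starts (Il16 and Prox1) the first is shown. Capitals mark matches to 5 motifs searched on both strands: CAGATG (an E-box form bound by NeuroD factors), CTTTGA (bound by TCF/LEF factors), TAATTA (bound by homeodomain factors), TATAAA (the sequence of the TATA box) and TGACGT (part of the cAMP response element). The position of a match relative to the start was not considered, so a TATAAA match need not be a TATA box. These genes were settled on after promoters of patterning factors and of upper-layer genes had been searched, so the matches describe these windows and carry no test.
Dsp, chr13:38151044-38151343, plus strand: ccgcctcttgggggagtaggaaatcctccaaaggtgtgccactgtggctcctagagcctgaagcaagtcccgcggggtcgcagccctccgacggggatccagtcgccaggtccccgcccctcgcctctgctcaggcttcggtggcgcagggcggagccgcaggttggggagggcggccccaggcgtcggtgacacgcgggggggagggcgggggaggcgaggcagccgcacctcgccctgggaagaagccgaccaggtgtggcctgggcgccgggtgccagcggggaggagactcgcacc
Lct, chr1:128328269-128328568, minus strand: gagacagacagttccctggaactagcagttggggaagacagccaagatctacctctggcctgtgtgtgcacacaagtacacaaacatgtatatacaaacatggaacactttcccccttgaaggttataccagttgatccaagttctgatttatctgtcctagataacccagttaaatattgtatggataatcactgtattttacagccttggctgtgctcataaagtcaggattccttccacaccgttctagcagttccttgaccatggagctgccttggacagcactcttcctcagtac
C1ql2, chr1:120340332-120340631, plus strand: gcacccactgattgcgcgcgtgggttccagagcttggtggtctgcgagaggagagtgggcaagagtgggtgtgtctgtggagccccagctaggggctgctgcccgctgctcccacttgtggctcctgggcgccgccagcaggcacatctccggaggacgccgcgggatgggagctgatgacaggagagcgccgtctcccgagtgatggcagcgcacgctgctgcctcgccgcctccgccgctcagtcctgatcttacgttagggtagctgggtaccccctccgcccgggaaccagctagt
Tdo2, chr3:81975679-81975978, minus strand: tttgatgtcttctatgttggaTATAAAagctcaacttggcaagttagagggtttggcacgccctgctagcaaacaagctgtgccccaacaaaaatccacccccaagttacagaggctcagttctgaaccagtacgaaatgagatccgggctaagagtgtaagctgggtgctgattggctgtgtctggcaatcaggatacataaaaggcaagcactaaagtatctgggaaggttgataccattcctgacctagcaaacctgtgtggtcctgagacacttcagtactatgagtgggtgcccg
Il16, chr7:83735490-83735789, minus strand: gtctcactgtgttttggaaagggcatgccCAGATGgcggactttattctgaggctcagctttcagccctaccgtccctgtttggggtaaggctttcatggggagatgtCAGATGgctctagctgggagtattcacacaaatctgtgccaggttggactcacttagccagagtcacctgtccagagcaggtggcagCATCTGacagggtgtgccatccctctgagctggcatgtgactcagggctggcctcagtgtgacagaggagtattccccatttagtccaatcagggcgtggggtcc
Prox1, chr1:190170778-190171077, minus strand: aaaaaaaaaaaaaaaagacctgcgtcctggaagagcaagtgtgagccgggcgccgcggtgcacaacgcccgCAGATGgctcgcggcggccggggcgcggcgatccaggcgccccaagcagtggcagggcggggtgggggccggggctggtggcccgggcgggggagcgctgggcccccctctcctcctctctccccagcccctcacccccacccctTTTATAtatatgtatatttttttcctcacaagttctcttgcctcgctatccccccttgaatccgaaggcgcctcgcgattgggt
Prox1 holds 1 match to CAGATG and 1 to TATAAA, Il16 holds 3 to CAGATG, Tdo2 holds 1 to TATAAA, and the windows of Dsp, Lct and C1ql2 hold 0 of the 5 motifs. The TCF/LEF, homeodomain and cAMP response motifs are in 0 of the 6 windows. Among the 11706 genes tested that have an entry in the promoter table (73.9% of 15843), 11.8% hold CAGATG, 12% CTTTGA, 2.6% TAATTA, 7.15% TATAAA and 11.3% TGACGT. The CpG ratio (observed over expected from base composition) ran from 0.0678 in Lct to 0.807 in Prox1. With fewer than 80% of genes in the promoter table, a comparison of base composition between gene sets is void and is not given.

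CA3 pyramidal cell genes followed the same direction. Of 16 tested, 10 were higher in the hippocampus and 1 in the cortex (median log2 -1.2). Iyd, an iodotyrosine deiodinase, had 0.17, 0.281 and 0.135 CPM in the cortex and 6.83, 6.22 and 7.37 CPM in the hippocampus (log2 -5.11, SE 0.26, edgeR adjusted p = 1.89e-05). The postsynaptic scaffold Homer3 (-3.38), the neuropeptide Y receptor Npy2r (-2.72), the zinc finger factor St18 (-2.6) and the kainate receptor subunit Grik4 (-1.68) were further members. Coch, a secreted protein known from the inner ear, was the exception, with 50.4, 48.1 and 48.8 CPM in the cortex and 4.47, 11.5 and 5.83 CPM in the hippocampus (log2 2.74, SE 0.32, edgeR adjusted p = 0.00131).

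In CA1 genes the difference was carried by a few members. Spink8, a serine protease inhibitor, had 1.13, 0.983 and 1.18 CPM in the cortex and 18.9, 17.3 and 29.5 CPM in the hippocampus (log2 -4.31, SE 0.25, edgeR adjusted p = 3.28e-05). Fibcd1, a chitin-binding membrane protein, had 29.7, 12.5 and 24.1 CPM in the cortex and 197, 241 and 173 CPM in the hippocampus (log2 -3.2, SE 0.32, edgeR adjusted p = 0.000819). Without cortex libraries 1 and 3 its log2 was -4.03 and that of Lefty1 -5.4. The Nodal inhibitor Lefty1 (-4.36), the orphan receptor Gpr161 (-2.28) and the bHLH factor Neurod6 (-1.69) were higher in the hippocampus as well, 7 of 14 in all, against 1 higher in the cortex (median log2 -0.67). Wfs1, the endoplasmic reticulum protein of CA1 and of upper cortical layers, did not pass (log2 0.16, SE 0.15, edgeR adjusted p = 0.517). For CA2, 3 of 13 genes were higher in the hippocampus and 3 in the cortex (median log2 -0.08). The hippocampal and cortical shares over all genes tested were 8.36% and 10.9%. Amigo2, an adhesion molecule of CA2, had 9.21, 11.7 and 9.94 CPM in the cortex and 35.1, 40.2 and 34.3 CPM in the hippocampus (log2 -1.83, SE 0.12, edgeR adjusted p = 4.69e-05), and the plasticity-limiting Rgs14 (-1.07) was higher in the hippocampus too. The subiculum and entorhinal list went the other way, with 4 of 10 higher in the cortex and 1 in the hippocampus (median log2 1.11).

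Which transcription factors differ between the 2 pallial regions? Of 69 factors tested, 22 were higher in the cortex and 19 in the hippocampus, 12 in each direction by at least 2-fold (median log2 0.08). The called shares over all genes tested were 10.9% and 8.36%. Mef2c, a MADS-box factor that regulates cortical synapse number, had 729.9, 664 and 735 CPM in the cortex and 130.4, 106 and 137 CPM in the hippocampus (log2 2.51, SE 0.12, edgeR adjusted p = 1.48e-05). The TALE homeodomain factors Meis2 (1.79) and Meis1 (1.66), the zinc finger factor Tshz3 (1.46), and the retinoid-related receptors Rorb (1.2) and Rora (1.03) were higher in the cortex with it. The part of striatal RNA in Meis2 was not tested. Zbtb20, a zinc finger repressor needed for hippocampal pyramidal identity, had 61.6, 63.6 and 90.5 CPM in the cortex and 314, 157 and 499.6 CPM in the hippocampus (log2 -2.17, SE 0.44, edgeR adjusted p = 0.019). The Zbtb20 call did not hold without cortex library 1, cortex library 2 or hippocampus library 1 (edgeR adjusted p = 0.0832, 0.0649 and 0.0587). Lhx9, a LIM homeodomain factor of the medial pallium, had 1.76, 0.913 and 2.12 CPM in the cortex and 21.7, 18.8 and 18.5 CPM in the hippocampus (log2 -3.61, SE 0.26, edgeR adjusted p = 9.97e-05), and a log2 of -4.43 without cortex libraries 1 and 3. All 3 tested NeuroD factors were higher in the hippocampus, with Neurod6 (-1.69), Neurod1 (-1.22) and Neurod2 (-1.1), as were their relative Bhlhe22 (-1.3), the LIM-only protein Lmo1 (-1.98) and the nuclear factor I genes Nfib (-0.82) and Nfia (-0.8). Of the Emx homeobox genes, Emx2 (-0.7), which hippocampal growth depends on, was higher in the hippocampus, and Emx1 (0.43) was higher in the cortex, a call that was lost for Emx1 without cortex library 1 or 3 or hippocampus library 2 or 3 (edgeR adjusted p from 0.0795 to 0.16). Among factors that did not pass were Lhx2 (-0.3) and Nr2f1 (0.12).

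Genes known from the striatum, which adjoins the cortex, were higher in the cortex. Of 14 striatal genes tested, all 14 were higher in the cortex, 12 by at least 2-fold (median log2 3.2). The dopamine receptor Drd1 had 51.2, 62.7 and 40.4 CPM in the cortex and 1.89, 3.39 and 2.76 CPM in the hippocampus (log2 4.24, SE 0.25, edgeR adjusted p = 4.69e-05), and the adenosine receptor Adora2a had 51.5, 54.6 and 28 CPM in the cortex and 1.98, 2.47 and 1.84 CPM in the hippocampus (log2 4.4, SE 0.3, edgeR adjusted p = 0.000103). In both genes cortex library 3 was the lowest and library 2 the highest of the group. The orphan receptor Gpr6 (4.55), the phosphatase regulator Ppp1r1b (2.9), Drd2 (3.4), Rgs9 (2.61) and the phosphodiesterase Pde10a (1.67) were higher too. Cortical neurons express several of these genes as well, and the part of adjoining striatum in the difference was not tested.

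Genes with the largest cortical differences outside these lists were of mixed kind. Igfn1, an immunoglobulin-domain protein known from muscle, had 34, 43.6 and 31.9 CPM in the cortex and 0.387, 0.494 and 0.746 CPM in the hippocampus (log2 6.07, SE 0.23, edgeR adjusted p = 1.08e-05). Sh3rf2, a ubiquitin ligase that counters apoptotic JNK signalling, had 10.4, 12.3 and 8.36 CPM in the cortex and 0, 0.132 and 0.0439 CPM in the hippocampus (log2 7.22, SE 0.44, edgeR adjusted p = 3.81e-05). Both were close to 0 in every hippocampal library, so the size of the fold is loosely fixed: for Sh3rf2 it was 8.63 on the log2 scale without hippocampus library 2, where that of Irs4 was 5.47, and that of Serpina9 was 7.36 without hippocampus library 3. The serpin Serpina9 (6.62), the T-cell genes Cd4 (5.37) and Trbc2 (5.28), the insulin receptor substrate Irs4 (4.2), the proton pump accessory gene Atp6ap1l (4.01) and the matrix-binding Abi3bp (3.81) were further members of this set. On the hippocampal side large differences outside the field lists included those of the retroviral envelope gene Syna (-4.11) (-4.81 without cortex libraries 1 and 3), the sodium-proton exchanger Slc9a4 (-4.03), the tetraspanin Tspan18 (-3.95), the synaptic protease neuropsin, Klk8 (-3.64), and the calcium-binding protein Cabp7 (-3.48). Cabp7 was the most abundant of them, with 38.9, 26.1 and 35.9 CPM in the cortex and 405, 359 and 365 CPM in the hippocampus.

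Among abundant genes (100 CPM or more on average), those with the smallest p-values were of several kinds, Mef2c, Lamp5, Cabp7 and Gabra5 among them. Atp2b4, a plasma membrane calcium pump, had 467, 429 and 477 CPM in the cortex and 102, 78.3 and 87.5 CPM in the hippocampus (log2 2.36, SE 0.11, edgeR adjusted p = 1.68e-05). Arpp21 and Arpp19, small phosphoproteins regulated by cyclic AMP, were higher in the cortex (1.93 and 1.92), as were the guanine nucleotide exchange factor Ngef (1.9) and the calcium-binding protein Necab1 (1.38). Wipf3, an actin regulator of the WASP-interacting family, had 168, 189 and 180.3 CPM in the cortex and 666, 643 and 655 CPM in the hippocampus (log2 -1.87, SE 0.08, edgeR adjusted p = 1.36e-05). The copine Cpne6 (-1.88), the Rap GTPase regulator Sipa1l3 (-2.12), the Ras scaffold Ksr1 (-1.71), the store-operated calcium channel Orai2 (-1.62) and the glycosyltransferase Galnt17 (-1.8) were higher in the hippocampus.

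Ionotropic glutamate receptors showed a subunit-specific pattern. Gria1, the AMPA receptor subunit central to hippocampal potentiation, had 451, 438 and 465 CPM in the cortex and 1309, 1230.3 and 1235 CPM in the hippocampus (log2 -1.48, SE 0.08, edgeR adjusted p = 2.44e-05). Its auxiliary subunits Shisa6 (-3.19), Cnih2 (-1.47) and Cacng8 (-1.2) were higher in the hippocampus too, while Cacng3 (1.23), Gria4 (0.98) and Cacng2 (0.71) were higher in the cortex. Gria2 and Gria3 did not pass (log2 -0.35 and 0.34), except Gria2 without hippocampus library 2 (edgeR adjusted p = 0.0085) and Gria3 without hippocampus library 3 (edgeR adjusted p = 0.0372). Of the NMDA receptor subunits, the obligate subunit Grin1 had 539.9, 525 and 508 CPM in the cortex and 578, 611 and 525 CPM in the hippocampus and did not pass (log2 -0.12, SE 0.09, edgeR adjusted p = 0.367), and neither did Grin2a (-0.53) or Grin2b (0.15), whereas Grin3a (0.6) was higher in the cortex. Kainate subunits parted, with Grik3 (1.48) higher in the cortex and Grik4 in the hippocampus. Of the metabotropic receptors, Grm8 (2.07), Grm4 (1.32) and Grm3 (0.76) were higher in the cortex and Grm2 (-0.41) in the hippocampus. In all, 15 of 37 receptor and auxiliary genes were higher in the cortex and 6 in the hippocampus (median log2 0.1). The shares over all genes tested were 10.9% and 8.36%. Leaving out 1 library ended the calls of Grm2 without cortex library 2 or 3 or hippocampus library 1 or 2 (edgeR adjusted p from 0.0579 to 0.109) and Grm4 without hippocampus library 3 (edgeR adjusted p = 0.0603).

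Of the GABA and glycine receptor genes, 11 were higher in the cortex and 1 was higher in the hippocampus. Gabra5, the alpha subunit of extrasynaptic receptors that set tonic inhibition in hippocampal pyramidal cells, had 66.8, 56.5 and 66.8 CPM in the cortex and 228, 205 and 227 CPM in the hippocampus (log2 -1.8, SE 0.09, edgeR adjusted p = 2.25e-05). It was the member higher in the hippocampus among 22 tested (median log2 0.52). Gabra3 had 202, 176 and 210.3 CPM in the cortex and 51.2, 74.7 and 64.1 CPM in the hippocampus (log2 1.63, SE 0.14, edgeR adjusted p = 0.000212). The delta subunit Gabrd (1.46), the rare subunits Gabrq (3.5) and Gabre (1.77) and the glycine receptor subunits Glra3 (3.19), Glra2 (1.09) and Glrb (0.48) were in this group, whereas Gabra2 (-0.44) did not pass. Gabra2 passed without hippocampus library 2 (edgeR adjusted p = 0.0196) and in DESeq2 (adjusted p = 0.0464). The calls of the rarer members were lost for Gabre without cortex library 2 or 3 or hippocampus library 1 or 3 (edgeR adjusted p from 0.0567 to 0.101) and Glra3 without cortex library 1 or 3 or hippocampus library 1 (edgeR adjusted p from 0.0684 to 0.073), and the log2 of Glra3 was 2.56 without hippocampus library 2.

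Interneuron genes were higher in the cortex in part. The GABA-synthesising enzymes Gad2 (0.75) and Gad1 (0.41), the vesicular transporter Slc32a1 (0.79) and the calcium buffer Pvalb (0.66) of fast-spiking cells were higher there. Vip, the peptide of disinhibitory interneurons, had 49.4, 38.9 and 51 CPM in the cortex and 14.6, 19.2 and 20.8 CPM in the hippocampus (log2 1.35, SE 0.16, edgeR adjusted p = 0.000789). Somatostatin, Sst, had 160.3, 121 and 153 CPM in the cortex and 116, 128 and 128 CPM in the hippocampus and did not pass (log2 0.22, SE 0.11, edgeR adjusted p = 0.221), and neither did Cck (-0.18), Calb2 (-0.83) and Cnr1 (-0.15). Sst and Calb2 passed in part, Sst without cortex library 2 (edgeR adjusted p = 0.0252) and Calb2 without hippocampus library 3 (edgeR adjusted p = 0.000739). Calb2 also passed in DESeq2 (adjusted p = 0.00564). Higher in the hippocampus were Htr3a (-0.74), Adarb2 (-0.74), Npas1 (-0.73) and Nos1 (-0.57). Of 38 genes, 17 were higher in the cortex and 4 in the hippocampus (median log2 0.52), against 10.9% and 8.36% of all genes tested. Calls were lost for Gad1 without cortex library 3 or hippocampus library 1 (edgeR adjusted p from 0.0567 to 0.0582), Pvalb without hippocampus library 1 (edgeR adjusted p = 0.0511) and Htr3a without cortex library 2 or 3 or hippocampus library 1 or 2 (edgeR adjusted p from 0.0568 to 0.092). Several of the former, such as Penk, Tac1 and Gad2, are also made by striatal neurons.

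Neuropeptides included some of the widest gaps. Trh, thyrotropin-releasing hormone, had 6.38, 6.39 and 8.69 CPM in the cortex and 0.172, 0.165 and 0.175 CPM in the hippocampus (log2 5.36, SE 0.26, edgeR adjusted p = 1.68e-05). Penk, the enkephalin precursor, had 241, 293 and 182 CPM in the cortex and 28.7, 24.4 and 25.1 CPM in the hippocampus (log2 3.2, SE 0.18, edgeR adjusted p = 4.26e-05). Its order among the cortex libraries was that of the striatal marker sums (1930.0, 2251 and 1447 CPM), and the part of striatal RNA in Penk, Tac1 and Pdyn was not tested. The precursors Tac1 (3.21), Crh (2.06), Tac2 (1.72), Pdyn (1.48) and Npy (0.89) and the cAMP-raising peptide Adcyap1 (1.64) were higher in the cortex. The neurotrophin gene Ntf3 (-2.18) was higher in the hippocampus, while Bdnf, with 40.6, 40 and 51.2 CPM in the cortex and 45.2, 41.5 and 52.3 CPM in the hippocampus, did not pass (log2 -0.08, SE 0.13, edgeR adjusted p = 0.725). Gastrin-releasing peptide, Grp (-0.84), and the pentraxin Nptx1 (-0.86) were higher in the hippocampus, while its relative Nptx2 (1.11) was higher in the cortex. Of 40 genes tested, 19 were higher in the cortex and 6 in the hippocampus (median log2 0.47). A call was lost, that of Grp without cortex library 1, 2 or 3 or hippocampus library 1 or 2 (edgeR adjusted p from 0.0507 to 0.0797).

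Among 42 peptide and growth factor receptors, 15 were higher in the cortex and 10 in the hippocampus (median log2 0.31). Cckbr, the brain cholecystokinin receptor, had 67.3, 56.4 and 65.7 CPM in the cortex and 6.19, 8.56 and 8.82 CPM in the hippocampus (log2 3.0, SE 0.15, edgeR adjusted p = 1.89e-05). The substance P receptor Tacr1 (2.18), the galanin receptor Galr1 (2.19), the somatostatin receptors Sstr2 (1.55) and Sstr1 (0.61) and the corticotropin-releasing hormone receptor Crhr1 (0.9) were higher in the cortex. Of the neuropeptide Y receptors, Npy2r (-2.72) and Npy5r (-0.76) were higher in the hippocampus and Npy1r did not pass (-0.25). The melanocortin receptor Mc4r (-1.56) and the somatostatin receptor Sstr4 (-0.96) were also higher there. Not all of these calls held: they were lost for Sstr1 without cortex library 1 or 3 or hippocampus library 1 or 3 (edgeR adjusted p from 0.0913 to 0.181) and Galr1 without cortex library 3 or hippocampus library 1 or 3 (edgeR adjusted p from 0.0521 to 0.0695), and that of Sstr1 also with library totals (edgeR adjusted p = 0.0588).

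Receptors for monoamines, acetylcholine and cannabinoids were called in both directions, with 22 of 46 higher in the cortex and 10 in the hippocampus (median log2 0.64), a list that holds striatal genes. Dopamine receptors were called in both directions. Drd5 had 3.06, 3.2 and 2.29 CPM in the cortex and 18.7, 21.6 and 20.5 CPM in the hippocampus (log2 -2.83, SE 0.15, edgeR adjusted p = 2.44e-05), whereas Drd1 and Drd2 above were higher in the cortex. Drd1 and Drd2 are on the striatal list, and the part of striatal RNA in them was not tested. Serotonin receptors were divided as well. Htr2a, the main excitatory serotonin receptor of the cortex, had 24.8, 21.6 and 24.2 CPM in the cortex and 8.42, 4.51 and 7.81 CPM in the hippocampus (log2 1.78, SE 0.22, edgeR adjusted p = 0.00114), and Htr1d (3.82), Htr1b (1.1), Htr2c (1.01) and Htr5a (0.98) were higher in the cortex. Htr1a, the inhibitory receptor dense in the hippocampus, had 22, 17.7 and 23.7 CPM in the cortex and 45.6, 47.7 and 41.4 CPM in the hippocampus (log2 -1.09, SE 0.12, edgeR adjusted p = 0.000584), and Htr5b (-2.03) and Htr4 (-1.8) were higher there. For noradrenaline, Adra1b (2.36), Adrb1 (1.19) and Adra2a (0.72) were higher in the cortex and Adra1d (-1.29) in the hippocampus, of which the call was lost for Adra2a without cortex library 1, 2 or 3 or hippocampus library 1 or 3 (edgeR adjusted p from 0.0552 to 0.15). Muscarinic Chrm2 (1.42) and Chrm4 (1.23) were higher in the cortex, while Chrm1 and Chrm3 did not pass (log2 -0.31 and 0.1).

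**Figure D4:**
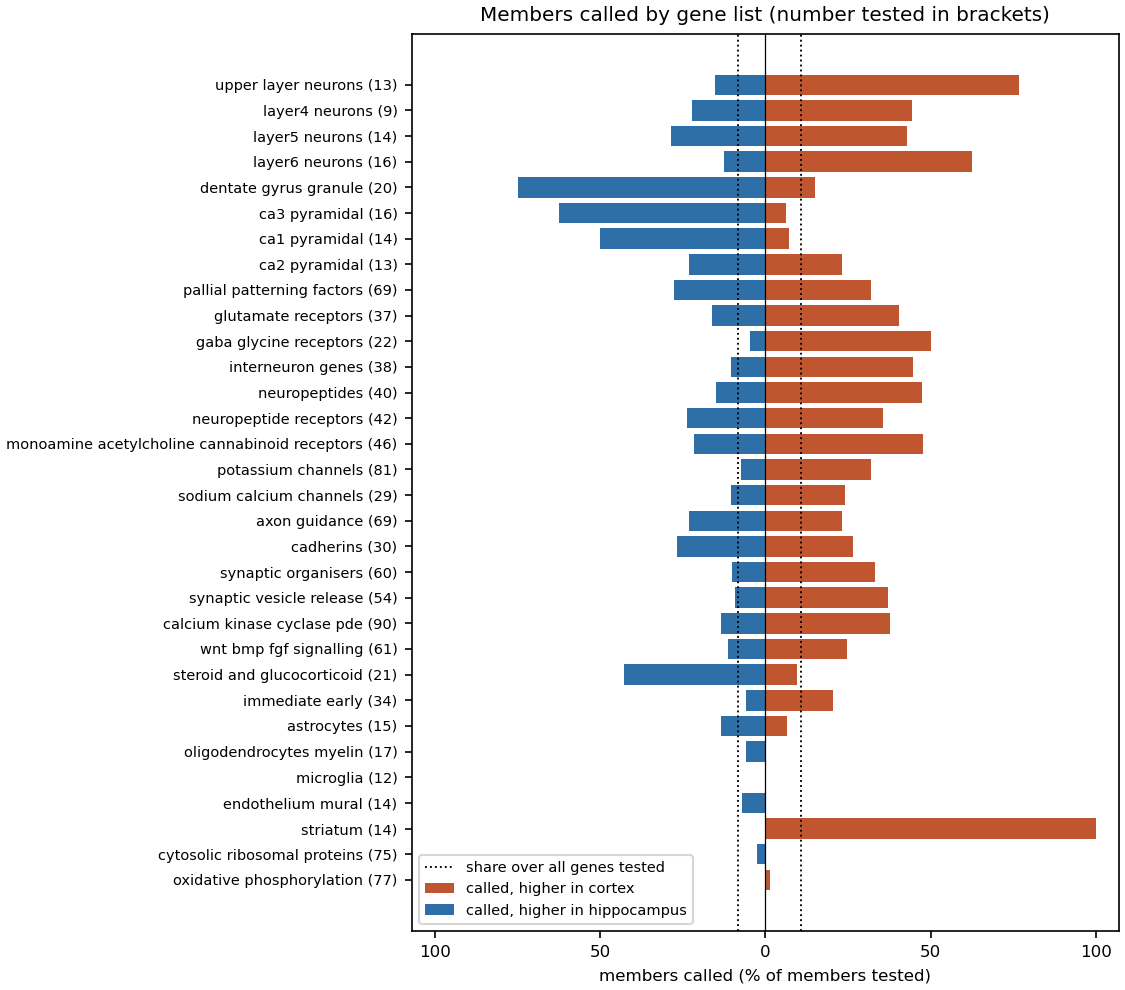
Share of the tested members of 32 gene lists that were called higher in the cortex (orange, to the right) or in the hippocampus (blue, to the left), in percent; dotted lines give the shares over all genes tested, 10.9% and 8.36%. Upper-layer, layer 6, striatal and GABA receptor lists lie mostly to the right, granule cell and CA3 lists to the left, and ribosomal, oxidative phosphorylation, microglial and myelin lists near 0.

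The list counts were repeated after the data had been seen, once without the libraries numbered 2 and once without cortex libraries 1 and 3, which leaves 1 cortex library assumed to vary like the hippocampal ones. All 14 striatal genes were called in the cortical direction in both. Upper-layer calls in the cortex were 11 and 8, layer 6 calls 12 and 9, granule cell calls in the hippocampus 15 and 10, CA3 calls 10 and 8, GABA and glycine receptor calls in the cortex 13 and 4, and neuropeptide calls in the cortex 22 and 10. Meningeal genes, of which 0 of 12 were called in the cortex and 1 in the hippocampus with all 6 libraries, were called in the cortex in 8 cases without the libraries numbered 2.

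Potassium channel genes were called mostly in the cortical direction, with 26 of 81 higher in the cortex and 6 in the hippocampus (median log2 0.28). All genes tested gave shares of 10.9% and 8.36%, to be set beside this count and the next. The inward rectifiers Kcnj12 (1.55), Kcnj2 (1.35) and Kcnj4 (1.18), the sodium-activated channel Kcnt1 (1.55), the leak channel Kcnk3 (1.15) and the silent subunits Kcnf1 (1.63), Kcnv1 (1.36) and Kcns1 (1.1) were higher in the cortex. Kcng2, another silent subunit, had 2.27, 1.62 and 1.65 CPM in the cortex and 14.7, 9.08 and 11.4 CPM in the hippocampus (log2 -2.65, SE 0.23, edgeR adjusted p = 0.000167), and the small-conductance channel Kcnn2 (-0.89) and the A-type regulator Kcnip2 (-0.67) were higher in the hippocampus. Of 29 sodium and calcium channel subunits, 7 were higher in the cortex, including Scn4b (3.12), Scn1a (0.69), Cacna2d2 (1.26) and Cacnb4 (1.0), and 3 in the hippocampus, Cacna1h (-1.42), Scn3b (-1.27) and Cacnb2 (-0.52) (median log2 0.19). The striatal marker sums were higher in the cortex libraries, and the part of striatal RNA in Scn4b was not tested. The main axonal sodium channel Scn8a (0.04) and the presynaptic calcium channels Cacna1a (0.01) and Cacna1b (0.08) did not pass. Among the channel calls, those lost with 1 library left out were Kcnt1 without hippocampus library 3 (edgeR adjusted p = 0.0505), Scn1a without cortex library 1 or 3 or hippocampus library 1 (edgeR adjusted p from 0.1 to 0.12) and Cacnb4 without cortex library 1 or 3 or hippocampus library 1 (edgeR adjusted p from 0.0607 to 0.0764).

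Guidance ligands and receptors differed in both directions, 16 of 69 higher in the cortex and 16 in the hippocampus (median log2 -0.12). For this list and the cadherins below, the shares over all genes tested were 10.9% and 8.36%. Sema3a, a secreted repellent, had 36, 30.6 and 39.1 CPM in the cortex and 2.36, 2.76 and 2.68 CPM in the hippocampus (log2 3.75, SE 0.13, edgeR adjusted p = 1.08e-05). Its receptor component neuropilin Nrp1 had 40.4, 39.5 and 52 CPM in the cortex and 155, 114 and 154 CPM in the hippocampus (log2 -1.68, SE 0.16, edgeR adjusted p = 0.000312), and the plexins Plxna4 (-0.85) and Plxna1 (-0.76) that pair with it were higher in the hippocampus too. A call was lost for Plxna4 without cortex library 1, 2 or 3 or hippocampus library 1 or 3 (edgeR adjusted p from 0.0706 to 0.113). In the ephrin system the ligand Efna5 (2.95) was higher in the cortex, and the receptors Epha7 (-1.34), Epha4 (-0.88) and Epha3 (-0.76) in the hippocampus. The midline repellent Slit1 (-2.06) was higher in the hippocampus and its receptor Robo2 (0.57) in the cortex, a call lost for Robo2 without cortex library 1, 2 or 3 or hippocampus library 1 (edgeR adjusted p from 0.061 to 0.128). Of 30 cadherins and protocadherins, 8 were higher in the cortex, such as Cdh7 (2.11), Cdh18 (1.81), Cdh4 (1.38) and Cdh13 (1.07), and 8 in the hippocampus, such as Cdh9 (-1.17), which acts at mossy fibre synapses, and Pcdh20 (-2.67) (median log2 0.21).

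Synapse-organising proteins were higher in the cortex for 20 of 60 genes and in the hippocampus for 6 (median log2 0.22). For this list and the next, the shares over all genes tested were 10.9% and 8.36%. The cerebellins, bridging proteins between neurexins and postsynaptic receptors, included Cbln2 (2.24), Cbln1 (1.7) and Cbln4 (1.36) in the cortical direction, and of their C1q-like relatives C1ql2 was higher in the hippocampus while C1ql3 did not pass (-0.27). The leucine-rich Lrrtm3 (1.68) and Lrrtm1 (-0.86) lay on opposite sides. The neuroligin and neurexin genes Nlgn1 (0.11), Nlgn2 (0.12), Nlgn3 (-0.2) and Nrxn3 (0.4) did not pass, except Nrxn3 without hippocampus library 3 (edgeR adjusted p = 0.0324). Nrxn3 also passed in DESeq2 (adjusted p = 0.0286) and with the low-count filter dropped (edgeR adjusted p = 0.0439). In a fit with a term for the replicate number its edgeR adjusted p was 0.0486. In the release machinery 20 of 54 genes were higher in the cortex and 5 in the hippocampus (median log2 0.26). Stx1a, a plasma membrane SNARE, had 294, 251 and 285 CPM in the cortex and 92.2, 93.8 and 82.1 CPM in the hippocampus (log2 1.63, SE 0.09, edgeR adjusted p = 3.01e-05), and Rims3 (2.07), Unc13c (2.02), Doc2a (1.77) and Syt2 (1.2) were higher in the cortex. The calcium sensor Doc2b (-1.55) was higher in the hippocampus, and the vesicular glutamate transporter Slc17a7, with 1503, 1208 and 1374 CPM in the cortex and 1709, 1571 and 1329.8 CPM in the hippocampus, did not pass (log2 -0.17, SE 0.13, edgeR adjusted p = 0.387).

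Calcium- and cAMP-signalling enzymes were called in 34 of 90 cases in the cortical direction and in 12 in the hippocampal one (median log2 0.14). Isoforms of the calcium/calmodulin kinase II parted. Camk2a, the main postsynaptic isoform, had 3603, 2888 and 3508 CPM in the cortex and 4769.9, 4741 and 4387 CPM in the hippocampus (log2 -0.48, SE 0.11, edgeR adjusted p = 0.0214), and Camk2b had 944, 877 and 873 CPM in the cortex and 1761, 1737 and 1532 CPM in the hippocampus (log2 -0.9, SE 0.09, edgeR adjusted p = 0.000387). Camk2a missed the threshold without cortex library 3 or hippocampus library 1 (edgeR adjusted p = 0.0533 and 0.0715). In contrast, Camk2d (2.09) and Camk2g (0.6) and the endogenous kinase inhibitors Camk2n1 (1.59) and Camk2n2 (0.75) were higher in the cortex. Protein kinase C isoforms Prkcd (-1.93) and Prkce (-0.5) were higher in the hippocampus and Prkch (1.02) and Prkcz (0.43) in the cortex. Prkcd is also on the thalamic list, whose sum was highest in hippocampus library 2 (355 CPM), and the part of thalamic RNA was not tested. The Prkcd call was lost with the low-count filter dropped (edgeR adjusted p = 0.0594). The inositol trisphosphate receptor Itpr1 (0.92) was higher in the cortex and the ryanodine receptor Ryr3 (-1.32) in the hippocampus. Further calls were lost for Prkch without hippocampus library 3 (edgeR adjusted p = 0.0534), Itpr1 without cortex library 1 or 3 or hippocampus library 1 (edgeR adjusted p from 0.0638 to 0.0855) and Ryr3 without cortex library 1 or 3 or hippocampus library 1 (edgeR adjusted p from 0.0656 to 0.0697).

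Wnt, BMP and FGF signalling genes, which set up the hippocampus at the cortical margin during development, were mixed in this tissue, with 15 of 61 higher in the cortex and 7 in the hippocampus (median log2 0.15). The shares over all genes tested were 10.9% and 8.36%. Dkkl1, a Dickkopf-like secreted protein, had 20.3, 13.4 and 17.8 CPM in the cortex and 0.43, 0.724 and 0.614 CPM in the hippocampus (log2 4.83, SE 0.24, edgeR adjusted p = 1.89e-05). The ligands Wnt9a (1.97), Wnt10a (1.56), Wnt4 (0.91), Bmp3 (2.75) and Bmp2 (1.12) and neuregulin Nrg1 (1.6) were higher in the cortex. Hippocampal members included the BMP antagonists Grem1 (-2.3) and Chrd (-1.46), the FGF genes Fgfr1 (-1.31) and Fgf10 (-1.11) and the Wnt inhibitor Nkd2 (-1.96). Another BMP antagonist, Nog (1.09), was higher in the cortex. The Wnt effector Lef1 (-0.2) and the feedback target Axin2 (-0.01) did not pass. A call was lost for Wnt4 without cortex library 1 or 3 or hippocampus library 1 or 3 (edgeR adjusted p from 0.0944 to 0.118).

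Genes of adult neurogenesis gave no uniform picture. Of 24 genes, 6 were higher in the hippocampus and 5 in the cortex (median log2 -0.06), against 8.36% and 10.9% of all genes tested. Gfap, the filament of astrocytes and radial progenitors, had 173, 135 and 171 CPM in the cortex and 386, 376 and 362 CPM in the hippocampus (log2 -1.23, SE 0.11, edgeR adjusted p = 0.00019). The progenitor gene Hopx (-1.06), the granule lineage genes Neurod1 (-1.22), Igfbpl1 (-1.34) and Draxin (-1.18) and the intermediate progenitor factor Eomes (-2.32) were higher in the hippocampus. Single-library dependence was seen for 2 of these, with the call lost for Igfbpl1 without cortex library 1 or 3 or hippocampus library 1 or 3 (edgeR adjusted p from 0.112 to 0.161) and Eomes without cortex library 1 or 3 or hippocampus library 1 or 3 (edgeR adjusted p from 0.0529 to 0.126), and the Eomes log2 was -3.37 without cortex library 2. In wild type the Eomes log2 was 1.78, in the cortical direction. Dcx, the microtubule protein of immature neurons, was higher in the cortex (log2 0.63, SE 0.18, edgeR adjusted p = 0.047), though not without cortex library 1, 2 or 3 or hippocampus library 1 (edgeR adjusted p from 0.0669 to 0.147), and the division genes Mki67 (0.33) and Top2a (-0.08) did not pass.

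Corticosteroid signalling genes were called in the hippocampal direction in 9 of 21 cases and in the cortical direction in 2 (median log2 -0.12). The shares over all genes tested were 8.36% and 10.9%. Nr3c2, the mineralocorticoid receptor, had 56.7, 47.1 and 52 CPM in the cortex and 274, 205 and 233 CPM in the hippocampus (log2 -2.19, SE 0.13, edgeR adjusted p = 3.01e-05). The glucocorticoid receptor Nr3c1 did not pass (log2 0.54, SE 0.18, edgeR adjusted p = 0.0741), except Nr3c1 without hippocampus library 2 (edgeR adjusted p = 0.0405) and in DESeq2 (adjusted p = 0.0143). Nr3c1 also passed in a fit with a term for the replicate number (edgeR adjusted p = 0.0138). The enzyme that regenerates corticosterone, Hsd11b1 (-1.09), the oxysterol hydroxylase Cyp7b1 (-1.17), and the responsive genes Zbtb16 (-0.79), Ddit4 (-0.66) and Fkbp5 (-0.65) and metallothioneins Mt2 (-0.59) and Mt1 (-0.43) were higher in the hippocampus, whereas Sgk1 did not pass (-0.12). Among the responsive genes, calls were lost for Zbtb16 without cortex library 1 or 3 or hippocampus library 1 or 2 (edgeR adjusted p from 0.0724 to 0.136) and Mt1 without cortex library 1 (edgeR adjusted p = 0.0603), and for Ddit4 in the fit of 12 libraries (edgeR adjusted p = 0.0886).

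Activity-induced immediate-early genes were called higher in the cortex in 7 of 34 cases and in the hippocampus in 2 (median log2 0.43), against 10.9% and 8.36% of all genes tested. Egr1, a transcription factor induced by synaptic activity, had 448, 411 and 581 CPM in the cortex and 123, 245 and 225 CPM in the hippocampus (log2 1.28, SE 0.26, edgeR adjusted p = 0.0148). Without cortex library 3 its edgeR adjusted p was 0.0574. Dusp1, the MAP kinase phosphatase, and Ier5 were higher by 1.19 and 1.22, and Homer1 (1.05), Egr3 (0.99) and Fosb (0.93) passed as well. Most of these calls depended on single libraries: they were lost for Dusp1 without cortex library 1, 2 or 3 or hippocampus library 3 (edgeR adjusted p from 0.051 to 0.0904), Homer1 without cortex library 3 or hippocampus library 1 (edgeR adjusted p from 0.062 to 0.0709) and Fosb without cortex library 1, 2 or 3 or hippocampus library 1, 2 or 3 (edgeR adjusted p from 0.0595 to 0.157). Fos varied widely, with 68.8, 86.7 and 128 CPM in the cortex and 20.1, 56.9 and 50.4 CPM in the hippocampus, and did not pass (log2 1.15, SE 0.43, edgeR adjusted p = 0.128), nor did Arc (0.8), Npas4 (0.59), Nr4a1 (0.6) and Junb (0.22), although Arc passed in DESeq2 (adjusted p = 0.0091). Fos, Arc, Npas4 and Nr4a1 passed in a fit with a term for the replicate number (edgeR adjusted p = 0.0154, 0.0287, 0.0084 and 0.0147). Jun had 73.6, 60.3 and 69.9 CPM in the cortex and 135, 121 and 103 CPM in the hippocampus (log2 -0.82, SE 0.12, edgeR adjusted p = 0.00221) and, with Nr4a3 (-0.77), was higher in the hippocampus, a call lost for Nr4a3 without cortex library 1 or hippocampus library 1 or 3 (edgeR adjusted p from 0.0545 to 0.071). The summed level of the list ranged from 2955 to 3871 CPM in the cortex and from 1657 to 2492 CPM in the hippocampus.

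Few glial, vascular and housekeeping genes were called. Of 12 microglial genes 0 were higher in the cortex and 0 in the hippocampus (median log2 0.09), 0 had an unadjusted edgeR p under 0.05, and DESeq2 called 0. Of 17 myelin genes 1 was higher in the hippocampus, the myelin regulator Myrf (-0.54) (median log2 -0.16), while Mbp (-0.3) did not pass. Astrocyte genes other than Gfap were mostly not called (12 of 15, median log2 -0.06), including the water channel Aqp4 (-0.3, edgeR adjusted p = 0.0346 without hippocampus library 2) and the glutamate transporter Slc1a2 (0.17). Of 14 vascular genes 1 was called, the smooth muscle actin Acta2 (-1.35). Ribosomal protein genes were called in 2 of 75 cases, Rps2 (-0.35) and Rpl22 (-0.3), and oxidative phosphorylation genes in 1 of 77, the muscle-type subunit Cox6a2 (0.99). Over all genes tested the shares were 10.9% and 8.36%. These few calls did not all hold, being lost for Myrf without cortex library 3 or hippocampus library 1 (edgeR adjusted p from 0.059 to 0.0692), Acta2 without cortex library 1, 2 or 3 or hippocampus library 1 or 2 (edgeR adjusted p from 0.0679 to 0.143), Rps2 without cortex library 1, 2 or 3 or hippocampus library 1 or 3 (edgeR adjusted p from 0.0587 to 0.14), Rpl22 without cortex library 1 or 3 or hippocampus library 1 (edgeR adjusted p from 0.0865 to 0.103) and Cox6a2 without cortex library 1 or 3 or hippocampus library 1 or 3 (edgeR adjusted p from 0.0791 to 0.108), and for Acta2 also in limma-voom (adjusted p = 0.0699). Of 10 choroid plexus genes 1 was called, Clic6, with 6.66, 6.74 and 13.5 CPM in the cortex and 0.773, 0.987 and 0.395 CPM in the hippocampus (log2 3.61, SE 0.41, edgeR adjusted p = 0.000874). Transthyretin, Ttr, had 155, 9.62 and 298 CPM in the cortex and 12.5, 8.23 and 6.45 CPM in the hippocampus and did not pass (edgeR adjusted p = 0.082). Ttr passed without cortex library 2 (edgeR adjusted p = 0.00215) and in DESeq2 (adjusted p = 0.00221). The Clic6 call was lost in the fit of 12 libraries (edgeR adjusted p = 0.0585).

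Matrix genes were called in both directions. Of 27 genes of the extracellular matrix, 6 were higher in the cortex and 5 in the hippocampus (median log2 -0.11). The perineuronal net link protein Hapln1 (-0.6) and the thrombospondin Thbs4 (-1.31) were higher in the hippocampus, the protease Adamts5 (1.38) and Lgi2 (1.28), a secreted epilepsy-related protein, in the cortex, and the net proteoglycan Acan did not pass (-0.51). Of 44 collagens 6 were higher in the cortex and 5 in the hippocampus (median log2 -0.05), near the 10.9% and 8.36% of all genes tested. Retinoid genes included Rxrg (2.49) and Rarb (2.0), nuclear receptors also made in the striatum, in the cortical direction, and the retinol transporter gene Stra6 (-1.31) in the hippocampal one, 3 and 3 of 18 in all (median log2 0.25).

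Are these genes restricted to the 2 regions? Over the knockout libraries of all 4 regions, scaled together, 429 of the 695 genes at least 2-fold higher in the cortex had their highest mean in the cortex (61.7%), 150 in the olfactory bulb (21.6%) and 116 in the cerebellum (16.7%). Of the 425 hippocampal genes, 321 had it in the hippocampus (75.5%), 57 in the cerebellum (13.4%) and 47 in the bulb (11.1%). Trh, for instance, had a mean of 68.2 CPM in the bulb against 7.48 CPM in the cortex, and Homer3 of 340.2 CPM in the cerebellum against 79.5 CPM in the hippocampus. The median span of the annotated gene on GRCm38 was 34.7 kb for cortical, 27.1 kb for hippocampal and 24.2 kb for all genes tested.

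Is the region difference the same in wild-type tissue? The wild-type comparison rests on 6 other libraries, so it shares no sample with the one above. There, 1083 genes were higher in the cortex (6.83% of 15863 tested) and 726 in the hippocampus (4.58%). Of the 1085 genes called with at least a 2-fold difference in the knockout and tested in both, 1072 had the same sign in wild type, and 840 (77.4% of the 1085) were also called with that sign. Of all 3012 knockout calls tested in wild type, 1618 were called there in the same direction, which is 53.7% of the knockout calls and 90.6% of the 1786 wild-type ones, and 1, Eomes, was called in the opposite direction. Its knockout call depended on single libraries, as given above. Across 15617 genes the 2 log2 values had a Pearson r of 0.882 and a Spearman rank correlation of 0.801, described here over genes, which are not independent replicates. The hippocampal wild-type libraries 1 and 3 held 2475 and 3251 CPM of choroid plexus genes, against 42.1 CPM in library 2. Without these 2 libraries, which leaves 1 hippocampal library assumed to vary like the others, 701 and 377 genes passed.

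**Figure D5:**
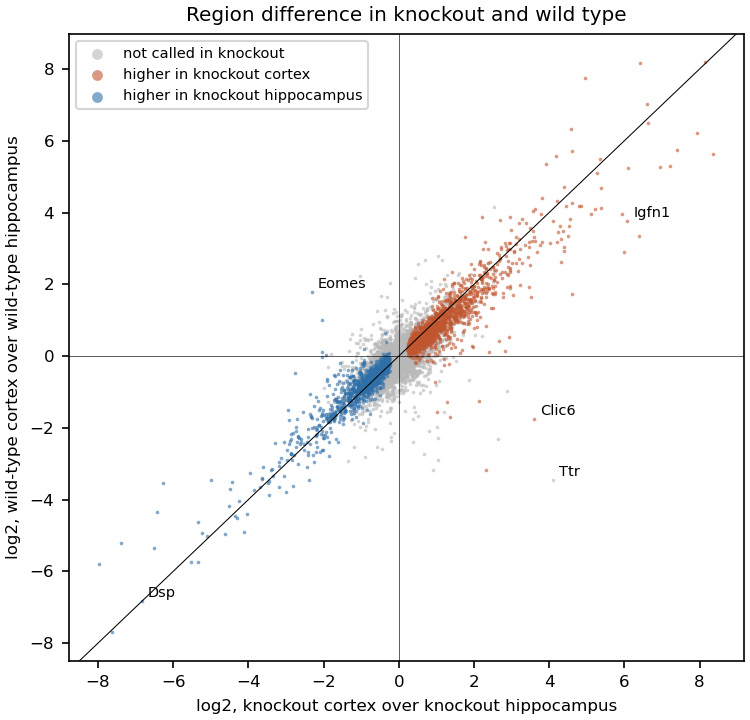
Log2 of cortex over hippocampus in wild type (vertical) against the same in knockout (horizontal) for genes tested in both; colours show the knockout calls and the line marks equal values. Most coloured genes lie near the line (r = 0.882 over 15617 genes), while the choroid plexus genes Ttr and Clic6 and the T-box gene Eomes lie far from it.

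The difference between genotypes was tested directly as an interaction over the 12 libraries. With edgeR, 0 of 16351 genes (0%) reached the threshold. An unadjusted p under 0.05 was found for 407 (2.49%), and DESeq2 called 2, Eomes and Frmd7. Without wild-type hippocampus library 2, edgeR called 9. Frmd7, a FERM-domain protein known from eye movement control, had 0.482, 1.12 and 1.04 CPM in the cortex and 4.21, 3.62 and 2.94 CPM in the hippocampus in the knockout and 4.66, 3.74 and 2.54 CPM in the wild-type cortex and 3.12, 3.6 and 3.39 CPM in the wild-type hippocampus (interaction log2 -2.13, SE 0.42, edgeR adjusted p = 0.99994). Eomes, also a factor of olfactory bulb projection neurons, had 0.113, 0.492 and 0.101 CPM in the cortex and 1.8, 0.856 and 0.833 CPM in the hippocampus in the knockout and 5.2, 2.15 and 2.173 CPM in the wild-type cortex and 1.16, 0.993 and 0.522 CPM in the wild-type hippocampus (interaction log2 -4.09, SE 0.82, edgeR adjusted p = 0.99994). All 3 wild-type cortex libraries were above all wild-type hippocampal ones, and the order was the opposite in the knockout. Ier5, an early response gene, had 113, 108 and 114 CPM in the cortex and 43.4, 45.3 and 55 CPM in the hippocampus in the knockout and 73.4, 70.4 and 75.9 CPM in the wild-type cortex and 45.8, 47.8 and 47.6 CPM in the wild-type hippocampus (interaction log2 0.58, SE 0.13, edgeR adjusted p = 0.99994), and for the serotonin receptor Htr2c the region difference was 1.01 in the knockout and 0.04 in wild type. The other genes with the 10 smallest interaction p-values were Marveld3 (4.25), Scgn (-3.02), Rab38 (1.91), Syndig1 (-0.49), Pla2g5 (2.43) and Vipr2 (-3.26), given with their interaction log2. Clic6 lay at 3.61 in the knockout and -1.76 in wild type. Knockout cortex libraries 1 and 2 had similar Clic6 levels, although their choroid plexus sums were 186 and 26.4 CPM. The part of choroid plexus RNA in the Clic6 difference was not tested.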

How the data were processed

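Poly(A) RNA from dissected brain regions was sequenced with a kit that keeps strand, per the labels' protocols, and the authors deposited whole-number read counts per gene for each library. Per the submitters' processing notes, the tools were bcl2fastq 2.17.1.14, STAR 2.5.1b and HTSeq 0.6.1p1 with genome mm9. The strand setting of the counting is not given in the sources used here, so overlapping antisense genes may share reads. Rows that name no gene (5 per table) were left out; in the 6 libraries 10.1% to 15.7% of reads were listed under no feature. Of 37621 features, 32897 received a symbol by gene ID from a GENCODE annotation on GRCm38. Gene spans were computed from it, and none of its positions is printed.

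Groups were taken from the labels. Genes passing filterByExpr were tested with edgeR 4.0.16 (TMM factors, robust quasi-likelihood F-test, R 4.3.3), with Benjamini-Hochberg adjustment over all genes tested and a threshold of 0.05. CPM were scaled with TMM factors, and SE is the log2 value over the square root of F. Alternatives were DESeq2 1.42.0, limma 3.58.1 (voom), other scaling and filters, a replicate block, all 12 libraries in 1 fit and leaving out libraries. In simulated counts for 15649 genes the test recovered 98% of 4-fold and 83% of 2-fold changes and called 17 unchanged genes. The changed genes were drawn only from those above a count floor, and uneven tissue content between libraries was not simulated. These rates therefore do not cover genes of low count or libraries uneven in content.

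The members, gene lists and tests were chosen with earlier results of these data known. Symbols of the Adgrl family were added to the list of synapse organisers once the files showed the current names. The replicate-block fit was changed, after its first result was seen, to test the same genes as the fit without the block. Genes were named as the 15 largest differences per direction (5 CPM or more in the higher region, no overlap), the 15 smallest p-values among genes of 100 CPM or more, the smallest interaction p-values, the locus features and members of the lists. Whether the members described from each list stand for the rest is shown by its counts, and examples within lists were picked with their values known. A few genes that this rule or the lists name are not reported here.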

Additional observations from a re-analysis of the deposited data

How the results depend on the processing

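The counts of called genes depended most on which libraries entered. Leaving out 1 knockout library gave 1076 to 1932 genes higher in the cortex and 886 to 1849 higher in the hippocampus, against 1722 and 1325. After the data were seen, 2 further alternatives were added: leaving out the 2 cortex libraries highest in choroid plexus RNA gave 518 and 425, and leaving out the libraries numbered 2 gave 2579 and 2532. Leaving out 1 wild-type library gave 584 to 966 and 416 to 979, against 1083 and 726, and leaving out the choroid-plexus-rich wild-type libraries gave 701 and 377. The interaction gave 0 genes in edgeR, 2 in DESeq2, and 0 to 9 with 1 library left out. The cause was not tested. DESeq2 size factors, library totals, DESeq2, limma-voom, both filters and the fit of 12 libraries kept the knockout counts within 1.5 times. Of 263 called genes named in the text, 169 kept sign and call under all 16 alternatives, 0 reversed, and 91 lost the call without the 2 cortex libraries. Leaving out 1 library cost 7 to 32 of these calls, the most without cortex library 3 or hippocampus library 1. Of the named genes without a call, 20 passed under at least 1 alternative, such as Nr3c1 in DESeq2 (adjusted p = 0.0143). The replicate numbers share no stated animal or batch, and the deviations of equal-numbered libraries correlated by 0.209, 0.181 and 0.0589, not all over 0.1, so they were not taken as pairs. Correlations between unequal-numbered libraries ran from -0.209 to 0.0694. With the replicate block 1654 and 1312 knockout genes, 1260 and 976 wild-type genes and 0 interaction genes passed. The block brought Fos, Arc, Npas4 and Nr4a1 past the threshold (edgeR adjusted p = 0.0154, 0.0287, 0.0084 and 0.0147), which did not pass in the edgeR fit without it. Precision is limited by 3 libraries a region.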
